A study of Mus musculus with 26 samples.

Results

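The YAC128 mouse carries a yeast artificial chromosome with the full-length human huntingtin gene (HTT), whose CAG repeat is expanded as in Huntington's disease. Here the striatum of hemizygous YAC128 mice was compared between 6 and 12 months of age: all arrays of YAC128 striatum labelled with the younger (4 arrays: 1 female, F1, and 3 males, M1, M2 and M3) and the middle age (5 arrays: 3 females, F1, F2 and F3, and 2 males, M1 and M2) were taken, 9 of the 26 arrays of the series. The labels write these ages in weeks and the methods in months; months are used here. The mice were on a C57BL6/J background and were killed by cervical dislocation at a matched point within the light phase, and each array held the striatum of 1 mouse. Wild-type (WT) C57BL6/J striatum of the same ages (4 arrays at 6 months, 5 at 12 months) and YAC128 striatum at 18 months (5 arrays) were the other groups used. All mice of the 2 YAC128 ages carried the transgene, so ageing and time under the transgene cannot be told apart within YAC128 arrays. Scan dates were not among the sources used, so an array batch that follows age cannot be separated from it, and p-values measure the spread between these mice.

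Medium spiny neurons make up most of the striatum. They receive cortical and thalamic glutamate and midbrain dopamine, send either a direct or an indirect projection to the output nuclei of the basal ganglia, and are the cells that degenerate first in Huntington's disease. Levels of several transcript classes in this tissue follow the state of the animal at death as well as its age: immediate early genes are transcribed within minutes of neuronal activity, and clock genes cycle over the day. In whole tissue, fewer cells of a type and less RNA per cell cannot be told apart.

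Levels are given as log2 RMA values, the authors' normalised probeset intensities on the log2 scale, so that a difference of 1 is a doubling, and differences are 12 months minus 6 months ± SE. The test is limma's moderated test on the 9 arrays with Benjamini-Hochberg adjustment over 34760 probesets. At an unadjusted p under 0.05, 1559 probesets (4.49%) differed, 728 higher (2.09%) and 831 lower (2.39%) at 12 months. At an adjusted p under 0.05, 0 probesets (0%) did, and the smallest adjusted p was 0.943, so no gene passed after correction for the number of probesets. In what follows a gene is called, or described as higher or lower at 12 months, where its unadjusted limma p was under 0.05. Each gene so called in the YAC128 fit had an adjusted p of 0.943 or more. The 4 and the 5 arrays did not overlap for 552 probesets (1.59%), about the share that a random split of the 9 arrays would give. The 4.49% called does not exceed the share of 0.05 that this threshold gives where nothing differs. The same holds for all probesets in the WT comparisons below. A call or a lack of overlap thus describes the values of a gene and does not by itself show a change. Differences were small: 71 probesets exceeded 0.5 and 100 lay below -0.5 on the log2 scale, while 4 exceeded 1 and 9 lay below -1. The split into higher and lower depended on scaling, with 915 higher and 678 lower after quantile normalisation and 1251 higher and 459 lower with each array centred on its median.

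Arrays of each age correlated at Pearson's r of 0.984 to 0.995 at 6 months and 0.989 to 0.993 at 12 months, with no duplicated arrays. The labelled sex matched the sex-linked genes on all 9 arrays: Eif2s3y, a Y-linked gene, was 4.41 to 4.56 in the 4 females and 8.77 to 9.02 in the 5 males, and Xist was 12.16 to 12.41 in females and 5.82 to 7.82 in males. The sexes were unequally spread over the ages. With sex as a term, 1396 probesets (4.02%) were at an unadjusted p under 0.05.

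The arrays M2, M1 and F1 at 6 months stood apart from the rest. On array M2 the 43 medium spiny neuron genes averaged 9.83 against 10.37, 10.49 and 10.40 on F1, M1 and M3 and 10.33 to 10.45 at 12 months, and 37 of the 43 were lowest there. The same array had the highest mean of 33 cortical projection neuron genes, 9.61, against 8.74, 8.82 and 8.99 on the other 6-month arrays and 8.90 to 9.28 at 12 months. Slc17a7, the vesicular glutamate transporter of cortical neurons, was 11.90 on M2 and 7.25 on F1, with M1 at 9.33, M3 at 10.21 and the 12-month arrays at 9.30 to 10.99. On array M1 the 24 genes of choroid plexus and ependyma averaged 8.43 against 7.13 to 7.33 on the others of that age and 7.20 to 7.54 at 12 months, and 18 of the 24 were highest there. Ttr, the transthyretin of choroid plexus, was 13.64 on M1 and 9.63 to 11.13 on the other 6-month arrays, but reached 12.99 on 12-month M1. Array F1, the only female of its age, had the lowest weight (0.352) where arrays were weighted by their fit, and the lowest cortical mean, and without it 3901 probesets (11.2%) were at an unadjusted p under 0.05.

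**Figure D1:**
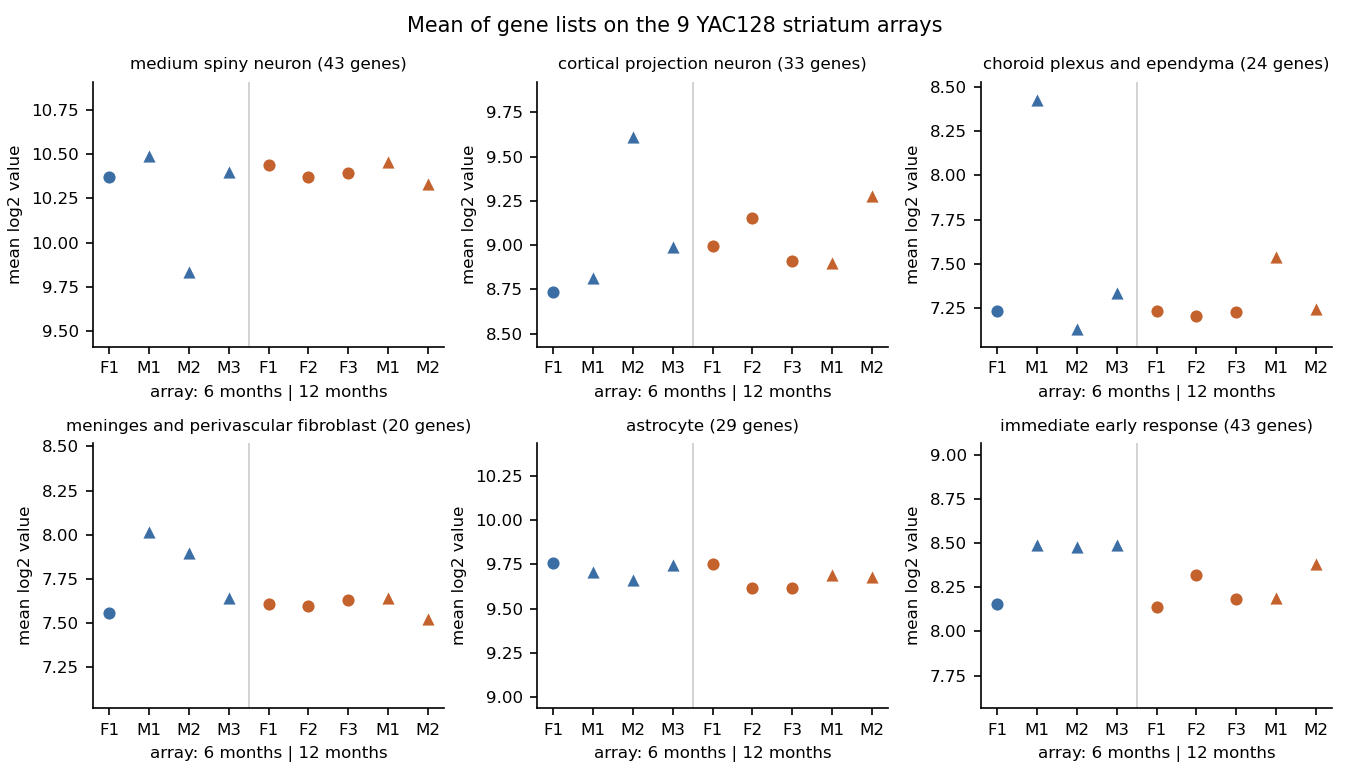
Mean log2 value of 6 gene lists (y axis, each panel spanning the same range) on each of the 9 YAC128 arrays (x axis, 6 months in blue and 12 months in orange, circles for females and triangles for males). Medium spiny neuron genes dipped to 9.83 on 6-month M2, choroid plexus genes peaked at 8.43 on 6-month M1, and the immediate early mean was 8.16 on 6-month F1 against 8.48 to 8.49 on the other 6-month arrays.

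Called immediate early genes were all lower at 12 months. Of 43 genes of the immediate early response, 11 were lower and 0 higher at an unadjusted p under 0.05 (25.6% of the list, against 4.49% of all probesets), 33 of 43 had a negative difference, and the median difference was -0.12 against -0.01 over all probesets. They comprised transcription factors of the Fos, Jun, Egr and Nr4a families, the activity-dependent regulator Npas4, the synaptic protein gene Arc, and feedback genes that end the response, among them Dusp1, a phosphatase that inactivates MAP kinases, and Sik1, a kinase that restrains CREB-driven transcription.

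Dusp1 measured 9.67, 9.71, 9.73 and 9.77 on the 6-month arrays F1, M1, M2 and M3, and 9.05, 9.21, 9.01, 9.24 and 9.66 on the 12-month arrays F1, F2, F3, M1 and M2. All 12-month arrays lay below all 6-month arrays, 12-month M2 only just. The level at 6 months was 1.4 times that at 12 months (difference -0.49 ± 0.12).

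Btg2, an antiproliferative target of neuronal activity, measured 8.26, 8.18, 8.73 and 8.22 at 6 months and 7.75, 7.96, 7.88, 7.83 and 8.02 at 12 months. The groups did not overlap, and 6-month M2 stood above the rest of its age (difference -0.46 ± 0.11). Fos itself measured 7.64, 7.58, 7.66 and 7.51 against 7.12, 7.29, 7.45, 6.99 and 7.49, again without overlap (-0.33 ± 0.10). Ccn1, a secreted matrix protein induced early by growth factors, was 7.58, 7.59, 7.94 and 7.69 against 7.41, 7.38, 7.47, 7.44 and 7.48 (-0.26 ± 0.08), and Egr2 also separated the ages (-0.57 ± 0.19).

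The largest difference of the list was that of Npas4, which measured 9.47, 9.05, 8.93 and 8.97 at 6 months and 7.81, 8.75, 8.16, 7.75 and 9.02 at 12 months. The level at 6 months was 1.75 times that at 12 months (-0.81 ± 0.26), but the 12-month M2 array overlapped the younger group. Nr4a1 ranged from 9.35 on F1 to 10.82 on M1 at 6 months and from 8.95 to 9.87 at 12 months (-0.75 ± 0.31), and Nr4a3 from 7.49 on F1 to 8.70 on M1 against 7.59 to 7.84 (-0.47 ± 0.20). For both of these orphan nuclear receptors the only 6-month female was below the 6-month males. Arc differed by -0.56 ± 0.19, Jun by -0.22 ± 0.09 and Sik1 by -0.20 ± 0.09.

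Sex moved with part of this list. The immediate early mean was 8.16, 8.49, 8.48 and 8.49 at 6 months and 8.14, 8.32, 8.19, 8.19 and 8.38 at 12 months, with the 6-month female among the 12-month arrays. With sex as a term 7 genes were lower and 1 higher. Without the 6-month female 21 were lower, where 2288 of all probesets were lower in place of 831. In males only 5 were lower, where 3481 of all probesets were. Dusp1 (-0.40), Btg2 (-0.43), Fos (-0.35), Ccn1 (-0.23), Npas4 (-0.84), Egr2 (-0.47) and Arc (-0.41) stayed at an unadjusted p under 0.05 with sex as a term, and Jun, Nr4a1, Nr4a3 and Sik1 did not. The first 7 also stayed there when any 1 of the 9 arrays was left out, and the last 4 each lost the call without at least 4 of the arrays. Genes named here were called on the same 9 arrays. Staying called in such fits shows only that the call did not rest on 1 array.

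In WT striatum the same list had 7 genes lower and 0 higher, with a median of -0.14. WT differences were -0.38 for Fos, -0.30 for Btg2, -0.76 for Npas4 and -0.28 for Dusp1, of which the last was not called. For the difference between the YAC128 and the WT interval, 0 of the 43 genes were at an unadjusted p under 0.05 (limma interaction contrast), where 1120 of all probesets were (3.22%). For Npas4 that difference was -0.05 ± 0.40 and for Dusp1 -0.20 ± 0.24, each smaller than its error. At 18 months the YAC128 list mean was 8.13, below the 8.24 of 12 months, and Npas4 was at 7.76 ± 0.40 (SD, n = 5).

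The sequence upstream of the 3 genes of the list with the smallest p is shown because early induction is known to act in part through elements near the start: the 250 bases before the RefSeq start on GRCm38.p6, 5′ to 3′ on the gene's strand. Dusp1 lies at chr17:26508473-26508722, Btg2 at chr1:134079156-134079405 and Ccn1 at chr3:145649986-145650235, all on the minus strand. Capitals mark the cAMP response element TGACGTCA bound by CREB, its shorter core TGACG (which the full element contains on both strands) and the E-box CACGTG, searched on both strands.
Dusp1: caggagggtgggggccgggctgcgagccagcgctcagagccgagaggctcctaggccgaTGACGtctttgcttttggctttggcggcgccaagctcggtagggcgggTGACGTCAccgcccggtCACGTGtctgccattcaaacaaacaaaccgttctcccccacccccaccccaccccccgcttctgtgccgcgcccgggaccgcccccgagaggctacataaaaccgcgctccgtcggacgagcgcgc
Btg2: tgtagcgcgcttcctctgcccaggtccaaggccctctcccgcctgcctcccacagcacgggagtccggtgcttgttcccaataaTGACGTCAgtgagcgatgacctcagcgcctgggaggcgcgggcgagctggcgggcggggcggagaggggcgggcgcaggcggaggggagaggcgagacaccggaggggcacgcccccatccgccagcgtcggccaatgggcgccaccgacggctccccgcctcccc
Ccn1: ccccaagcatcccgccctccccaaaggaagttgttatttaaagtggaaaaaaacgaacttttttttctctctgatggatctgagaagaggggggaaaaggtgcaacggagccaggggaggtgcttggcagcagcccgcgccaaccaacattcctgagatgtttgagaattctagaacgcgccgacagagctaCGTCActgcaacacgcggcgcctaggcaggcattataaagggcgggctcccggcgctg
Dusp1 and Btg2 each held 1 full cAMP response element, at 143 to 136 and 166 to 159 bases before the start. In Dusp1 an E-box lay at 126 to 121 bases and a further core at 191 to 187 bases, and Ccn1 held a single core at 58 to 54 bases. Among 32851 RefSeq promoters of this length the full element occurred in 1.55% and the core in 17.8%. A D-box (TTATGNAA) or CArG box was found in none of the 3 windows. These letters are a description of the sequence and were not tested as binding sites.

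Called circadian genes were mostly higher at 12 months. Of 22 clock and clock output genes, 5 were higher and 1 lower at 12 months (27.3% of the list), with a median of 0.05. The 5 higher genes were Nr1d1 and Nr1d2, the REV-ERB repressors, Dbp, a D-box activator, Ciart, a repressor of the CLOCK and BMAL1 pair, and Bhlhe41, an E-box repressor. Nfil3, the repressor that competes with Dbp for D-boxes, was the lower gene (-0.15 ± 0.07).

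Nr1d1 measured 10.88, 10.90, 10.78 and 10.83 at 6 months and 11.08, 11.11, 11.06, 11.03 and 11.20 at 12 months. All 12-month arrays lay above all 6-month arrays (0.25 ± 0.06). Dbp measured 9.92, 9.71, 9.46 and 9.74 against 10.03, 9.98, 10.03, 10.12 and 10.06 (0.33 ± 0.08), without overlap. Ciart measured 8.91, 8.81, 8.75 and 8.88 against 8.89, 9.35, 9.16, 9.41 and 9.43, where 12-month F1 sat inside the younger range (0.41 ± 0.11). Its other probeset gave 0.27 and did not overlap. Bhlhe41 differed by 0.29 ± 0.09 and Nr1d2 by 0.16 ± 0.06.

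Members of the core loop did not pass the threshold: Arntl differed by -0.02, Clock by 0.05, Per1 by -0.07, Per2 by 0.05 and Cry1 by 0.01. The signs of Arntl, Per1, Per2 and Cry1 turned under some alternatives. Nr1d1, Dbp, Ciart and Bhlhe41 stayed at an unadjusted p under 0.05 in all 9 leave-one-out fits and with sex as a term, whereas Nr1d2 and Nfil3 did not. With mice paired by the sex and number in their labels, 3 genes of the list were called in place of 6: Nr1d1, Dbp and Ciart stayed and Bhlhe41 did not.

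WT striatum had 6 clock genes higher and 0 lower, with 0.29 for Nr1d1, 0.31 for Dbp, 0.59 for Ciart and 0.48 for Bhlhe41. The interval difference between genotypes was at an unadjusted p under 0.05 for 0 of the 22 genes, and measured -0.04 ± 0.09 for Nr1d1 and -0.18 ± 0.19 for Ciart. In YAC128 striatum at 18 months Nr1d1 was at 10.98 ± 0.07, between its 6- and 12-month means, and Ciart at 9.42 ± 0.20 (SD, n = 5). Per the methods, all mice were killed at a matched point within the light phase.

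**Figure D2:**
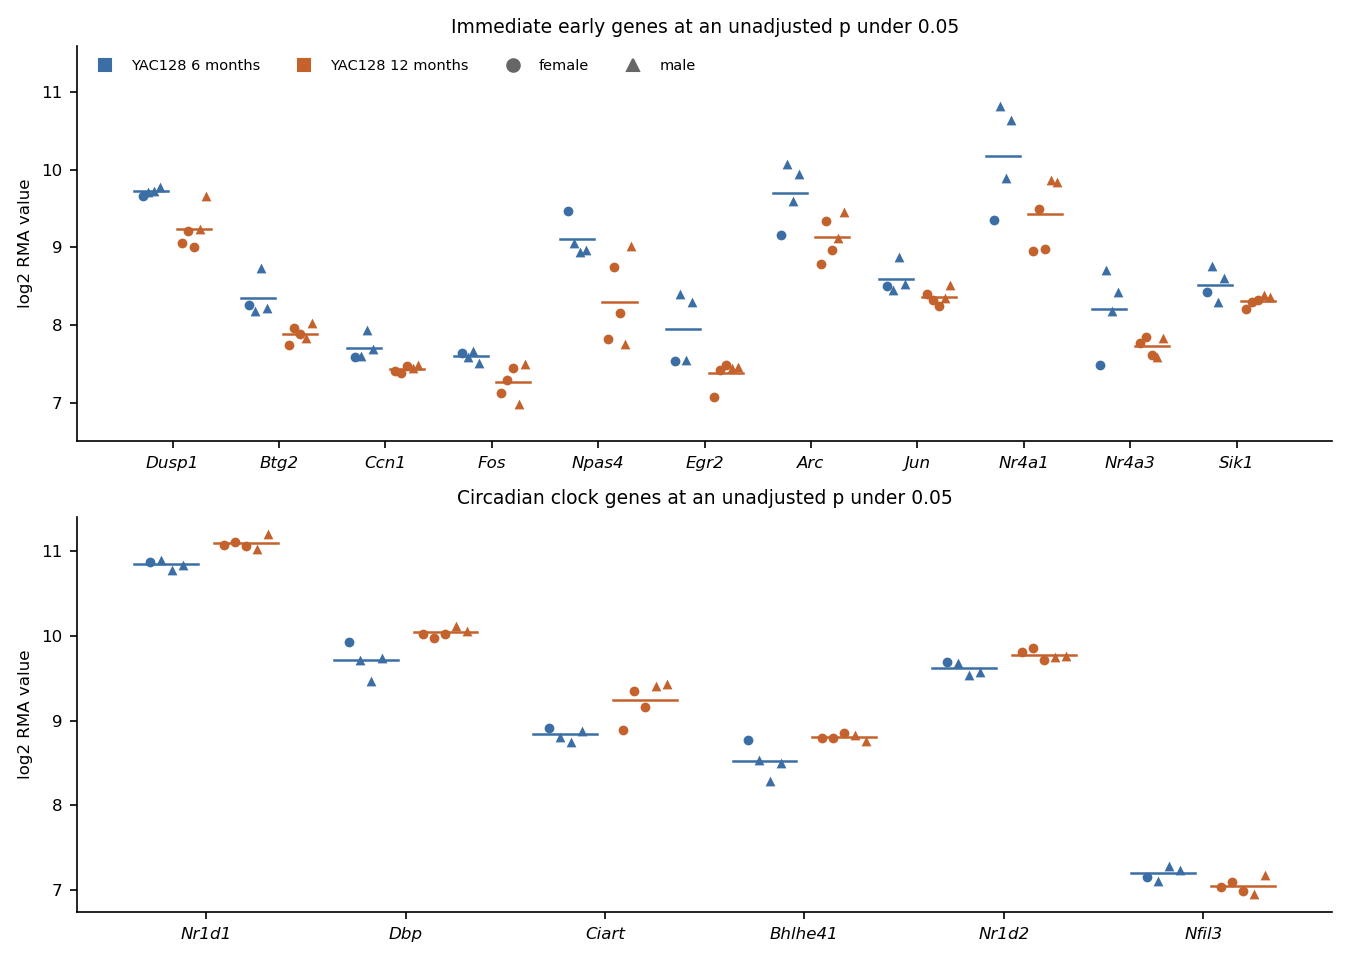
Log2 RMA value (y axis) of the 11 immediate early and 6 clock genes at an unadjusted p under 0.05 on each YAC128 array, 6 months in blue and 12 months in orange, circles for females, triangles for males, lines for group means. Dusp1, Btg2, Ccn1, Fos and Egr2 fall into separate ranges by age, as do Nr1d1, Dbp and Nr1d2, while Nr4a1 spans 9.35 to 10.82 at 6 months.

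Ciart had the densest set of E-boxes among the clock promoters read (the same 250-base window, chr3:95882229-95882478, minus strand, GRCm38.p6, capitals for CACGTG).
Ciart: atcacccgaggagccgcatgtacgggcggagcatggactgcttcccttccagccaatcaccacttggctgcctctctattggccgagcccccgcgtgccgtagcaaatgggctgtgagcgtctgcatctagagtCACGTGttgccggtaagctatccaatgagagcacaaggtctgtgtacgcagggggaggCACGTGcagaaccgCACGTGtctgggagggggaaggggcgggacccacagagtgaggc
It held 3 E-boxes, at 116 to 111, 58 to 53 and 44 to 39 bases before the start, where 6.02% of all promoters held at least 1. Nr1d1 and Dbp, the other clock genes read, held none of the motifs searched in this window, which says nothing of elements further away.

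The clustered protocadherins had the highest share of called members of the 51 gene lists. These cell surface proteins are encoded in tandem arrays, and each neuron expresses its own combination, which serves self-recognition of its dendrites and axons. All 22 genes measured belonged to the beta cluster (Pcdhb). 16 of the 22 were higher and 0 lower at 12 months (72.7%), all 22 differences were positive (0.04 to 0.40), and the median was 0.26. Pcdhb22, the smallest of them, turned negative with sex as a term. The genes are close paralogs whose probesets can share signal, so 22 genes are not 22 separate measurements.

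Pcdhb15 measured 8.66, 8.47, 8.60 and 8.36 on 6-month F1, M1, M2 and M3 and 8.97, 8.73, 8.84, 8.75 and 8.69 on the 12-month arrays. The ages did not overlap (0.28 ± 0.08). Pcdhb16 measured 7.98, 8.0, 7.82 and 7.90 against 8.12, 8.16, 8.09, 8.11 and 8.12, with an SD of 0.03 among the 12-month arrays (0.19 ± 0.05). Pcdhb13, with the largest difference, measured 7.76, 7.48, 7.73 and 7.30 against 8.31, 7.95, 7.89, 7.79 and 7.92 (0.40 ± 0.12). These 3 were the members that did not overlap. Pcdhb11 (0.31 ± 0.08) and Pcdhb4 (0.34 ± 0.09) had the smallest p.

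Sex moved with this list. Over the 9 arrays 11 of the 22 genes were higher in females and 0 lower, with a median of 0.19 for female minus male, and 6-month arrays were mostly male. Pcdhb6 showed it most: it was 9.08 on 6-month F1 and 8.50, 8.18 and 8.37 on the 6-month males, and 9.14, 8.97 and 9.11 in the 12-month females against 8.78 and 8.63 in the males. Its age difference was 0.39 ± 0.17 without a sex term and 0.21 with one, where it was no longer at an unadjusted p under 0.05. With sex as a term 9 of the 22 genes were higher, with a median of 0.18, and in the male arrays alone 8 were. Over all probesets the male arrays alone had 1529 higher and 3481 lower.

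Within each sex the list mean was still higher at 12 months. In females it was 7.75 at 6 months against 7.98, 7.82 and 7.83, and in males 7.48, 7.57 and 7.43 against 7.70 and 7.69. The count depended on single arrays: without 6-month M1 it was 8, without 6-month M2 11, without 6-month M3 6, without 12-month F1 10, and without 6-month F1 18. With mice paired by their labels it was 8 (median 0.20). Pcdhb4, Pcdhb11, Pcdhb13, Pcdhb15 and Pcdhb16 stayed at an unadjusted p under 0.05 in all 9 leave-one-out fits and with sex as a term.

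In WT striatum 7 of the 22 were higher and 0 lower, with a median of 0.16, and Pcdhb15 differed by 0.22. The interval difference between the genotypes had a positive median of 0.10, with 0 genes at an unadjusted p under 0.05, and for Pcdhb15 it was 0.06 ± 0.10. At 18 months the YAC128 arrays averaged 7.86 over the list, with females at 8.03 and 7.94 and males at 7.77, 7.74 and 7.80, against 7.80 at 12 months. The other 41 protocadherins, cadherins and catenins had 1 higher and 2 lower genes, and the 56 adhesion genes of synapses and axons 0 of either.

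**Figure D3:**
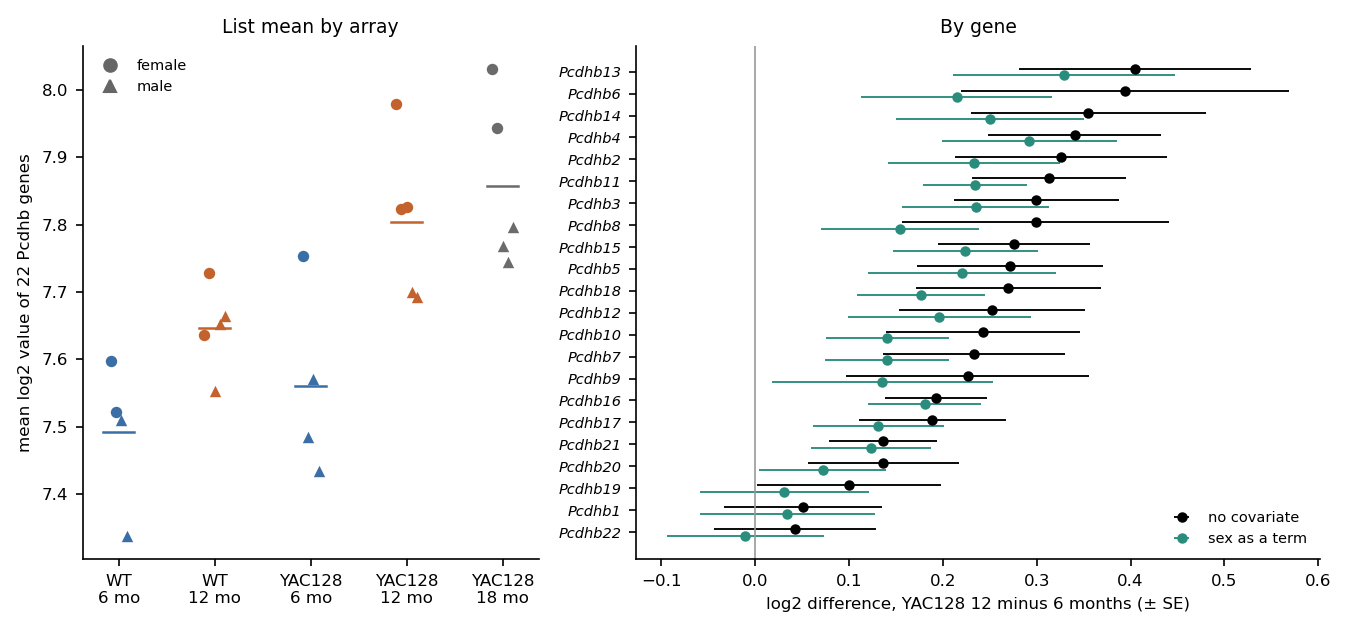
Left, mean log2 value of the 22 Pcdhb genes (y axis) on each WT and YAC128 array by age in months, circles for females, triangles for males and lines for group means; right, the YAC128 difference of each gene (x axis, log2, 12 minus 6 months, bars ± SE) without a covariate in black and with sex as a term in green. The YAC128 means span 7.43 to 7.75 at 6 months and 7.69 to 7.98 at 12 months, and sex as a term moves the median from 0.26 to 0.18.

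In the fit of all 9 YAC128 arrays no gene of the medium spiny neuron list was called lower at 12 months. Of 43, 2 were higher and 0 lower (4.65%, near the 4.49% of all probesets), 38 had a positive difference and the median was 0.12. With the cortical list mean as a term 13 were higher and 0 lower. The median of 0.12 rested on the array with the dip in this list, since without 6-month M2 it was -0.04. In that fit 0 genes were higher and 1 lower, and without 6-month F1 3 were higher and 1 lower, where 11.2% of all probesets were called. Pdyn, the prodynorphin of direct pathway neurons, measured 9.04, 8.73, 7.92 and 8.78 at 6 months and 9.25, 8.86, 9.02, 9.20 and 9.0 at 12 months, with M2 by far the lowest (0.45 ± 0.19). Bcl11b, the transcription factor CTIP2 of these neurons, was 9.87, 9.90, 9.37 and 9.80 against 9.99, 9.92, 10.03, 9.95 and 9.92 (0.23 ± 0.10). Neither gene was called without M2.

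Ppp1r1b (DARPP-32, the dopamine-regulated phosphatase inhibitor) was 11.79, 12.00, 10.98 and 11.89 at 6 months against 11.88 to 12.04 at 12 months, a difference of 0.28 ± 0.18 that was not called and was 0.05 without M2. Scn4b, a sodium channel subunit of the striatum, differed by 0.31 ± 0.16 and was not called either. Nor were the next genes: Drd1 differed by 0.17, Drd2 by 0.12 and Penk by 0.10, and without 6-month M2 these dopamine receptor and enkephalin genes turned negative, at -0.02, -0.11 and -0.08. Indirect pathway neurons (12 genes), interneurons (25), dopamine and cAMP signalling (47) and voltage-gated channels (51) each had 0 members at an unadjusted p under 0.05, as had the 33 cortical genes, of which 6 were higher without 6-month M2. With the cortical list mean as a term, 2 indirect pathway genes were higher, 4 interneuron genes higher and 1 lower, 6 dopamine and cAMP genes higher and 1 lower, and 5 channel genes higher, where 950 of all probesets were higher and 1026 lower. Htt, mouse huntingtin as the probeset is annotated, measured 9.78 to 9.87 at 6 months and upwards of 9.85 at 12 months, and was not called (0.08 ± 0.05).

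At 18 months the medium spiny neuron list averaged 10.08 in YAC128 striatum, with 9.54 on M2 and 10.17 to 10.23 on the other 4 arrays, against 10.33 to 10.45 at 12 months. No test was made against 18 months. WT striatum averaged 10.51 at 6 and 10.53 at 12 months. The 6-month WT mean included 10.16 on M2, against 10.52 to 10.74 on the other WT arrays of that age. That WT array also had the highest cortical mean of its group, 9.44 against 8.74 to 8.84.

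Called genes of ageing glia and complement were all higher at 12 months. Of 23 genes that mark ageing glia and complement, 5 were higher and 0 lower (21.7%), with a median of 0.04: C4b, C1qa and C1qb of the classical complement pathway, Apoe, the apolipoprotein of astrocytes and microglia, and the chemokine Ccl3. C4b measured 8.60, 8.50, 8.55 and 8.57 at 6 months and 9.02, 9.07, 8.91, 8.83 and 8.61 at 12 months, without overlap although 12-month M2 lay only just above 6-month F1 (0.33 ± 0.09). Apoe measured 12.57, 12.58, 12.37 and 12.48 against 12.71, 12.67, 12.77, 12.71 and 12.64 (0.20 ± 0.06). These 2 genes and Ccl3 (0.31 ± 0.11) held in all 9 leave-one-out fits.

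C1qb (0.30 ± 0.12) and C1qa (0.16 ± 0.07) did not hold: C1qb was 9.93 on 6-month F1, above 12-month F2, F3 and M2 at 9.83, 9.70 and 9.87. Females had higher C4b over the 9 arrays (0.20, at an unadjusted p under 0.05), and with sex as a term C4b (0.26), Apoe (0.18) and Ccl3 (0.22) were still called, while C1qb and C1qa were not. In males only, 1 gene of the ageing glia list was higher and 2 were lower, where 1529 of all probesets were higher and 3481 lower. Of 31 microglial genes 2 were higher (6.45%), and 8 without 6-month F1, where 1613 of all probesets were higher in place of 728. In WT striatum the ageing glia list had 1 higher and 1 lower gene. Apoe was higher there by 0.27 and C4b, not called there, differed by 0.17, and the interval difference for C4b was 0.16 ± 0.15. At 18 months C4b reached 9.38 ± 0.24 and Ccl3 7.67 ± 0.26 (SD, n = 5), with 18-month Ccl3 from 7.37 to 8.0 on arrays that all lay above the 12-month ones.

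Called astrocyte markers were mostly lower at 12 months. Of 29, 6 were lower and 1, Apoe, higher (24.1%), with a median of -0.04. Sox9, the transcription factor of astrocytes and neural stem cells, measured 9.43, 9.47, 9.27 and 9.33 at 6 months and 9.20, 9.12, 9.07, 9.23 and 9.27 at 12 months (-0.20 ± 0.06). Cbs, which makes cystathionine from homocysteine, measured 8.72, 8.75, 8.85 and 8.84 against 8.65, 8.61, 8.71, 8.57 and 8.61 (-0.16 ± 0.06). Neither gene overlapped between the ages, though the gap was small for both.

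The other 4 were membrane proteins of astrocytes: the potassium channel Kcnj10 (-0.18 ± 0.07), the serine transporter Slc7a10 (-0.19 ± 0.08), the water channel Aqp4 (-0.18 ± 0.08) and the gap junction protein Gja1 (-0.17 ± 0.08). These 4 overlapped between the ages, and each lost the call without at least 4 of the arrays. With sex as a term Sox9, Cbs and Kcnj10 remained, with arrays centred on the median 2 genes of the list were lower, and with mice paired by their labels 1 was lower and 1 higher. Markers that were not called included Gfap, Slc1a2 and Aldh1l1: Gfap differed by -0.05, Slc1a2 by -0.04 and Aldh1l1 by 0.02, and the signs of Gfap and Aldh1l1 turned under some alternatives.

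In WT striatum 0 astrocyte genes were lower and 1 was higher, where 480 of all 34760 probesets were lower and 1052 higher. The interval difference between genotypes was at an unadjusted p under 0.05 for 2 of the 29, where it was for 3.22% of all probesets. It was -0.24 ± 0.09 for Cbs and -0.23 ± 0.10 for Gja1, each with an adjusted p of 1. At 18 months Aqp4 was at 9.43, above the 9.05 of 6 months on average. Of 42 transcription factors of neural progenitors, Sox9, Sox2 (-0.14 ± 0.06) and Glis3 (-0.18 ± 0.07) were lower and 0 higher (7.14% called).

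**Figure D4:**
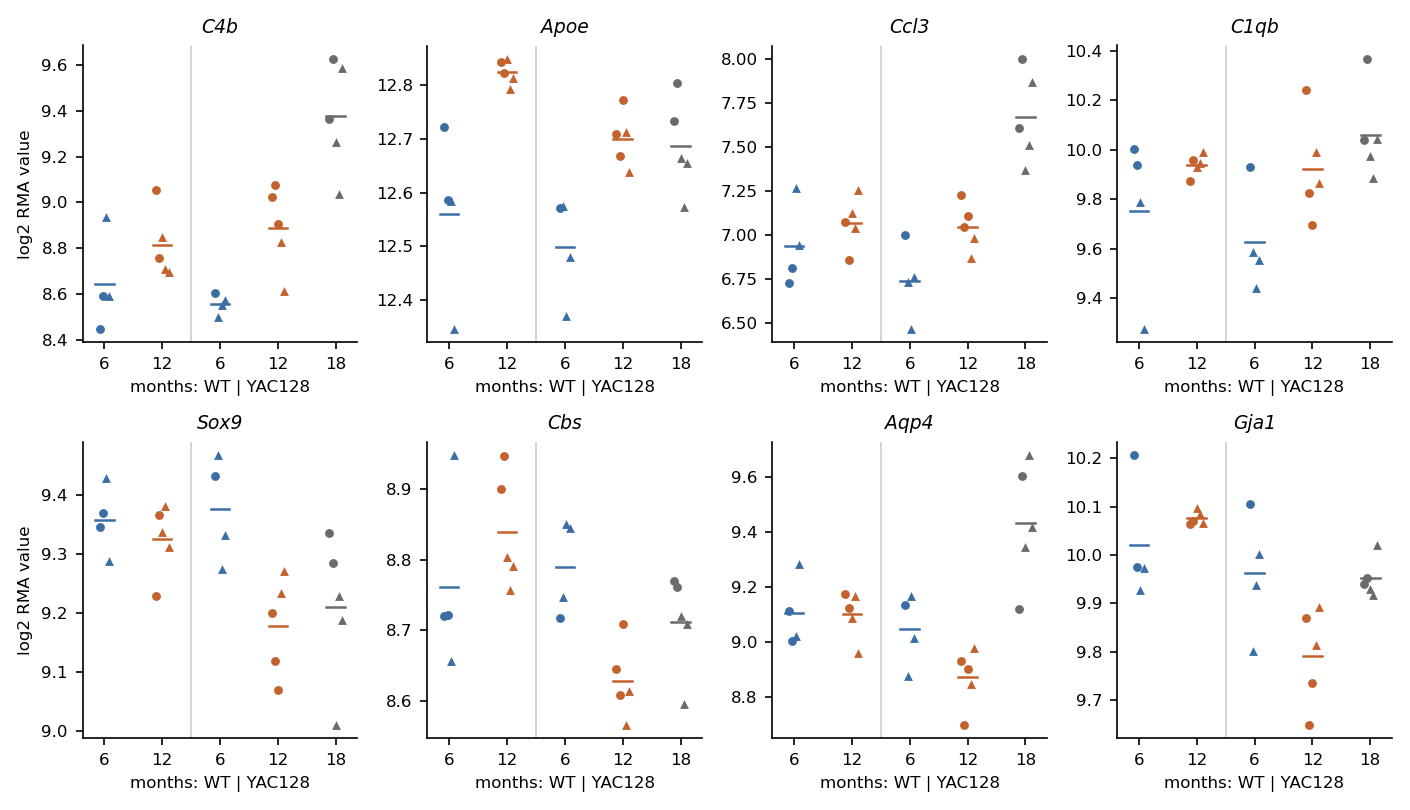
Log2 RMA value (y axis, a separate range in each panel) of 4 complement, lipid carrier and chemokine genes (upper row) and 4 astrocyte genes (lower row) on each WT and YAC128 array by age in months (x axis), circles for females, triangles for males, lines for group means. C4b runs from 8.50 to 8.60 in YAC128 striatum at 6 months to 9.04 to 9.63 at 18 months, and Cbs is lower at 12 months in YAC128 but not in WT arrays.

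Genes of the extracellular matrix gave calls in both directions. Of 65 integrin and matrix genes, 4 were lower and 2 higher (9.23%), with a median of -0.07: besides Ccn1, the proteases Adamts1 (-0.20 ± 0.07) and Mmp14 (-0.17 ± 0.06) and tenascin C, Tnc (-0.19 ± 0.07), were lower, and vitronectin, Vtn (0.19 ± 0.07), and Rhob, a small GTPase (0.19 ± 0.06), were higher. Without 6-month F1, 16 were lower and 3 higher, where 2288 of all probesets were lower and 1613 higher. With mice paired by their labels 2 were lower and 3 higher, where 1466 of all probesets were lower and 888 higher. Of 20 genes of meninges and perivascular fibroblasts 19 had a negative difference with a median of -0.16, but only Bgn, the proteoglycan biglycan, was lower at an unadjusted p under 0.05 (-0.27 ± 0.08). Leaving out 6-month F1 gave 10 lower genes of this list, where 2288 of all probesets were lower. The list mean was 7.56, 8.02, 7.90 and 7.64 at 6 months and 7.52 to 7.64 at 12 months, with 6-month M1 and M2, the arrays of the choroid plexus and the cortical peak, above all others. Their part in the difference was not tested.

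The 24 choroid plexus and ependymal genes had the lowest median, -0.20, with 3 lower and 0 higher (12.5%), and this median was 0.01 without 6-month M1. The 3 called genes belong to motile cilia: the dynein heavy chains Dnah11 (-0.22 ± 0.07) and Dnah5 (-0.20 ± 0.07) and the radial spoke protein Rsph1 (-0.18 ± 0.08). Dnah11 measured 6.96, 7.13, 6.92 and 6.86 against 6.78, 6.72, 6.87, 6.69 and 6.70. WT striatum gave 0.00 for Dnah11, and its interval difference was -0.22 ± 0.10.

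Of 62 cytosolic ribosomal protein genes 6 were higher and 1 lower at 12 months (11.3%), with a median of 0.03. The balance of calls turned with all 26 arrays in the fit (0 higher, 2 lower) and in males only (3 higher, 4 lower). Over all probesets the fit of 26 arrays had 539 higher and 622 lower, and males only 1529 higher and 3481 lower. Rps29 measured 10.25, 10.21, 9.94 and 10.04 in the younger mice against 10.34, 10.32, 10.48, 10.42 and 10.28 (0.26 ± 0.08), and Rpl26 differed by 0.24 ± 0.07, both without overlap. Rpl7 followed with 0.17 ± 0.06. Ribosomal protein genes have many processed copies in the genome, and their probesets may read more than 1.

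Of 83 oxidative phosphorylation genes 2 were higher and 2 lower (4.82%, near the 4.49% of all probesets), in no common direction. Cycs, cytochrome c, measured 11.85, 11.87, 11.77 and 11.69 against 11.67, 11.55, 11.41, 11.64 and 11.53 (-0.24 ± 0.07), and Atp5md of the ATP synthase was lower too (-0.22 ± 0.09). Uqcrc1 of complex III (0.15 ± 0.05) and Ndufa1 of complex I (0.21 ± 0.07) were higher. Among 74 mitochondrial ribosomal genes 1 (1.35%), Mrps21, was higher (0.40 ± 0.12). Among 48 proteasome genes 2 (4.17%) were higher, Psma7 (0.21 ± 0.06) and Psmc6 (0.15 ± 0.06). Neither share was above that of all probesets.

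Immune and hormone-responsive genes gave single members. Irak3, a pseudokinase that restrains Toll-like receptor signals, measured 8.0, 7.56, 7.74 and 7.5 at 6 months and 8.30, 8.18, 8.14, 8.18 and 8.06 at 12 months, 1.39 times as high (0.47 ± 0.10), and it was higher in WT striatum too (0.32 ± 0.06). Of 50 innate immune genes 2 were higher (Irak3 and Ccl3) and 2 lower, the adaptor Tirap (-0.20 ± 0.07) and the cytokine feedback gene Socs3 (-0.14 ± 0.06). Of 24 glucocorticoid-responsive genes 1 was higher, Klf9 (0.19 ± 0.05), and 1 lower, Dusp1 (8.33% of the list). The interferon list (35 genes) had 0 members called. Gh, growth hormone, was 7.52, 7.96, 8.04 and 7.91 against 7.41, 7.48, 7.66, 7.53 and 7.29 (-0.39 ± 0.11), the only one of 7 pituitary hormone genes at that threshold.

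**Figure D5:**
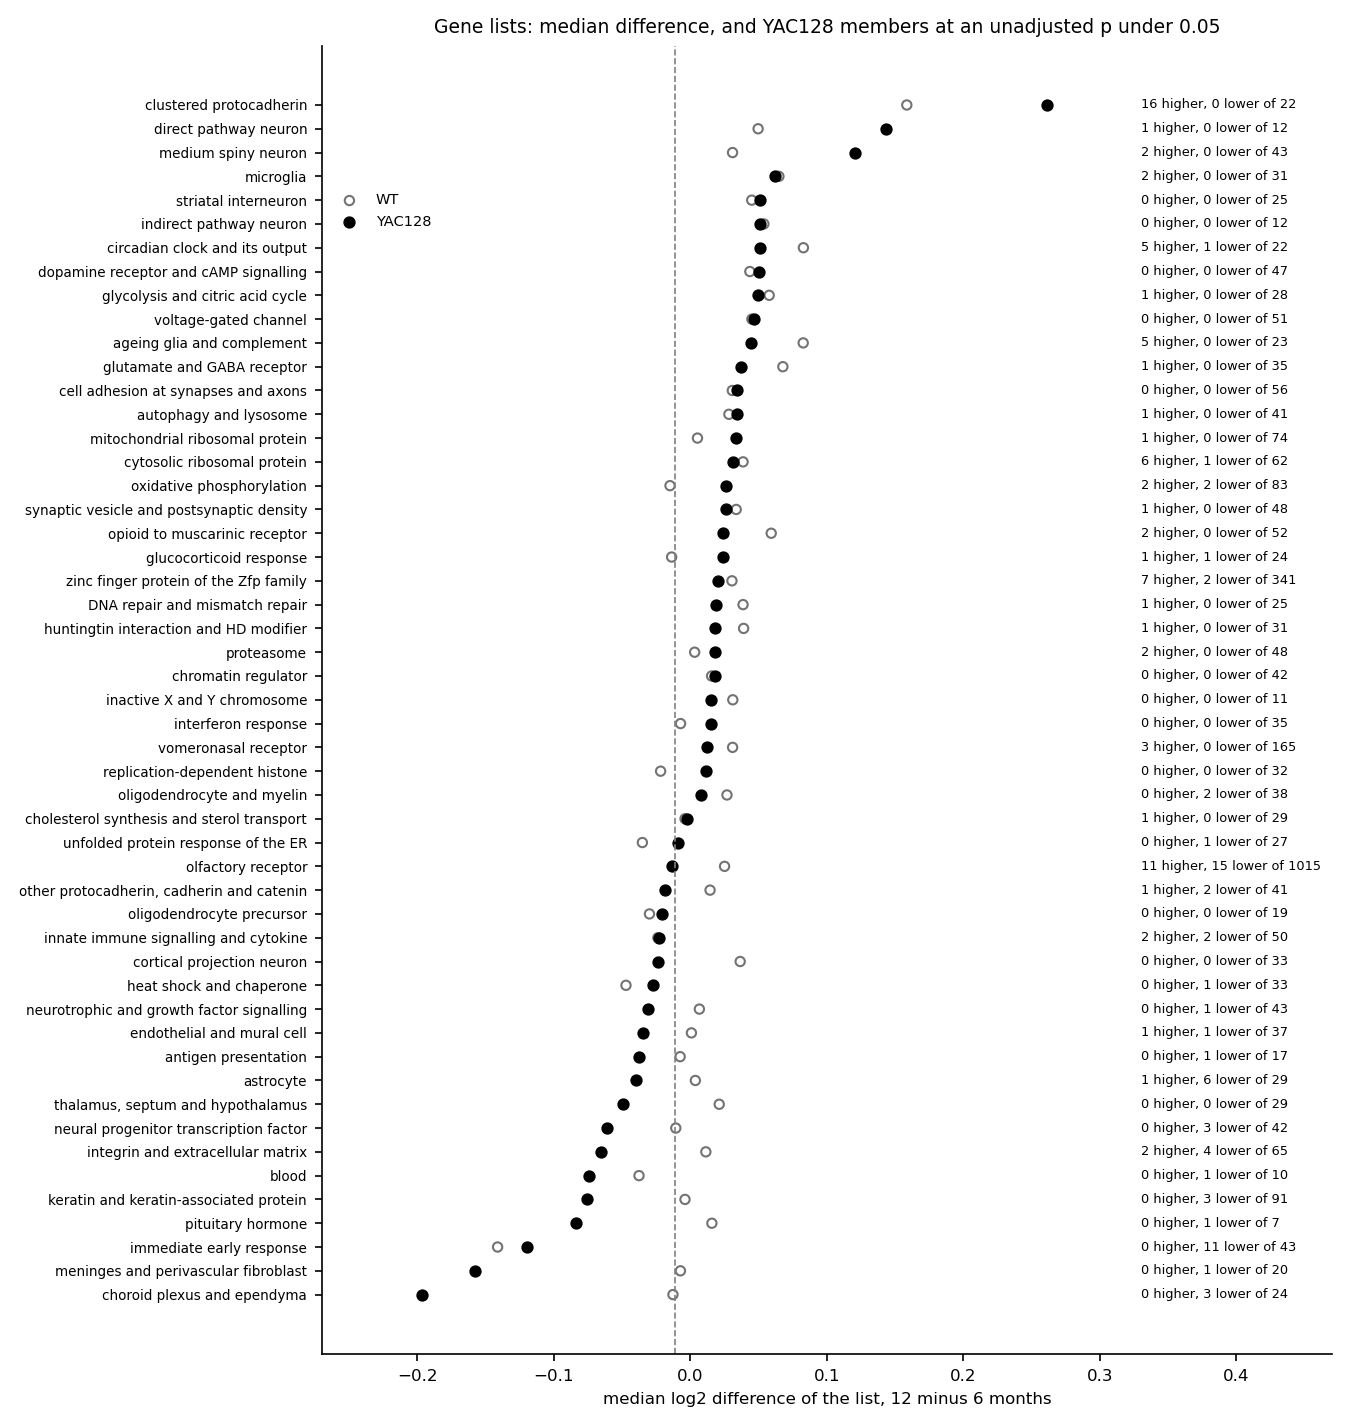
Median log2 difference between 12 and 6 months (x axis) of the 51 gene lists in YAC128 (filled) and WT striatum (open), with the count of YAC128 members at an unadjusted p under 0.05 at right and a dashed line at the median of all probesets, -0.01. Clustered protocadherins lie highest at 0.26, and the choroid plexus and ependyma list lowest at -0.20, where WT lies at -0.01.

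Among genes ranked by p alone, one of the smallest p-values belonged to Snord14e, a small nucleolar RNA in an intron of the chaperone gene Hspa8. It measured 9.38, 9.34, 9.20 and 9.26 at 6 months and 8.33, 8.76, 8.32, 8.22 and 8.97 at 12 months. The level at 6 months was 1.72 times that at 12 months (-0.78 ± 0.15), with no overlap, whereas Hspa8 differed by -0.07 and was not called. WT striatum gave -0.69 and YAC128 striatum at 18 months 8.28 ± 0.24 (SD, n = 5). Rny3, a Y RNA bound by Ro60, was also lower (13.54 to 13.70 against 13.19 to 13.51, -0.28 ± 0.08), with -0.07 in WT, where it was not called.

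Examples of other genes whose ages did not overlap and that held in all 9 leave-one-out fits were Srp9, Map2k1, Mmd and Icam5. Srp9, a subunit of the signal recognition particle, was 9.10 to 9.23 against 9.35 to 9.52 (0.26 ± 0.06). Map2k1, the kinase MEK1, was 10.43 to 10.61 against 10.71 to 10.83 (0.23 ± 0.06). Mmd was 9.99 to 10.07 against 10.15 to 10.34 (0.22 ± 0.05), with 0.05 in WT striatum, where it was not called. Icam5, the adhesion molecule telencephalin of forebrain neurons, was 9.20 to 9.30 against 9.36 to 9.53 (0.20 ± 0.05).

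On the lower side, Tspan18, a tetraspanin, was 7.41 to 7.54 against 6.98 to 7.26 (-0.30 ± 0.07). The DNA glycosylase gene Neil3 (-0.25 ± 0.06) and the mitotic genes Ube2c (-0.22 ± 0.06) and Ckap2l (-0.19 ± 0.05) were lower as well. Neil3 lay near the dim end of the array at 6.22 to 6.31 against 5.94 to 6.11. Gabarapl2, an ATG8-family protein of autophagy, had 2 probesets, the brighter with 0.15 ± 0.05 and the dimmer with 0.39, and the brighter lost the call without 6-month M3.

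A run of imprinted miRNA genes on chromosome 12, between Dlk1 and Dio3, was picked out after its values were seen. Like the other gene lists, it was given no test as a set. Of 40 miRNA genes there, 7 were higher and 0 lower at 12 months (17.5%), 32 had a positive difference and the median was 0.11, where 256 miRNA genes elsewhere had 4 higher and 2 lower with a median of -0.03. The genes elsewhere were dimmer, with a mean of 6.24 at 6 months against 7.71 for the run, so the 2 sets were not matched in level. In males only the genes elsewhere had 5 higher and 50 lower, and the 40 genes of the run 10 higher and 1 lower. All probesets had 1529 higher and 3481 lower in that fit. Meg3 and Rian, long RNAs of the same locus, were not called: Meg3 differed by 0.03 and Rian by 0.02, which was negative with sex as a term. Mir541 measured 6.41, 6.55, 6.36 and 6.13 at 6 months and 6.85, 6.60, 6.62, 6.60 and 6.67 at 12 months (0.31 ± 0.09). Mir382 measured 9.13, 9.02, 8.65 and 8.92 against 9.26, 9.04, 9.19, 9.29 and 9.27 (0.28 ± 0.10), and only these 2 held in all 9 leave-one-out fits.

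The mature products of the 3 genes with the smallest p are given from RefSeq (GRCm38.p6, plus strand, 5′ to 3′) with the seed, bases 2 to 8, in capitals, to show how their seeds differ. The array reads the gene and not 1 arm. Mir541 gives chr12:109742422-109742446 and chr12:109742466-109742487, Mir382 chr12:109733781-109733802 and chr12:109733819-109733840, and Mir668 chr12:109734733-109734756 and chr12:109734774-109734797.
miR-541-5p: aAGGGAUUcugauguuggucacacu
miR-541-3p: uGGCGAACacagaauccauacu
miR-382-5p: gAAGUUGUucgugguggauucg
miR-382-3p: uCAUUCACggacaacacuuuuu
miR-668-5p: gUAAGUGUgccucgggugagcaug
miR-668-3p: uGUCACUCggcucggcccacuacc
None of the 14 mature arms of the 7 called genes had a seed in common with another. Mir668 (0.14 ± 0.06), Mir411 (0.47 ± 0.20), Mir376b (0.22 ± 0.10), Mir154 (0.20 ± 0.09) and Mir300 (0.26 ± 0.12) were the remaining 5. Without 6-month M2, the array with the low medium spiny neuron mean, 2 of the 40 were called. Mir411 was 6.33 there and 7.11 to 7.38 on the rest of its age. WT striatum had 9 of the 40 higher and 0 lower, with 0.41 for Mir541 and 0.40 for Mir411.

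The WT mice of the same ages had 1532 probesets at an unadjusted p under 0.05 (4.41%) and also 0 at an adjusted p under 0.05. The YAC128 interval differed from the WT interval for 1120 probesets (3.22%), 307 with a higher and 813 with a lower value in YAC128, and 0 were at an adjusted p under 0.05. This split was reversed by scaling, at 687 and 518 after quantile normalisation and 581 and 470 with arrays centred on the median, so no overall direction was read from it. Without WT 6-month M2 the count was 2009, without YAC128 6-month F1 1807 and without YAC128 6-month M2 804.

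Slc7a11, the cystine transporter xCT, measured 9.09, 9.02, 9.47 and 9.07 in YAC128 striatum at 6 months and 8.94, 9.04, 8.78, 8.92 and 8.83 at 12 months (-0.26 ± 0.10). In WT striatum it measured 8.99, 8.81, 8.85 and 9.14 (F1, F2, M1, M2) against 9.03, 9.10, 9.19, 9.38 and 9.18 (F1, F2, M1, M2, M3), a difference of 0.23 ± 0.09. The interval difference was -0.49 ± 0.14. Its YAC128 call was lost without 6-month M2, the highest array, or without 12-month F3.

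Edn1, the vasoconstrictor endothelin 1, measured 7.78, 7.48, 7.52 and 7.55 against 7.49, 7.30, 7.33, 7.38 and 7.30 in YAC128 striatum (-0.22 ± 0.07) and 7.40, 7.44, 7.24 and 7.52 against 7.58, 7.52, 7.61, 7.57 and 7.39 in WT. Its interval difference was -0.36 ± 0.10, and it was the only 1 of 43 growth factor and neurotrophic genes called within YAC128 arrays. Slc24a5, a cation exchanger, was lower at 12 months within YAC128 arrays (-0.29 ± 0.09), with an interval difference of -0.42 ± 0.11, though at 18 months it measured 6.31 to 7.05. Dusp4, like Dusp1 a MAP kinase phosphatase, had an interval difference of -0.35 ± 0.09, with a WT difference of 0.22 ± 0.07. Within YAC128 arrays Dusp4 differed by -0.13 and was not called.

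In the other direction, Mir484 had the smallest p (0.45 ± 0.10), at 5.14 to 5.42 against 5.44 to 5.60 in YAC128 and 5.42 to 5.63 against 5.12 to 5.39 in WT striatum, all near the dim end of the array. Mrpl21, a mitochondrial ribosomal protein, had an interval difference of 0.31 ± 0.08, with a WT difference of -0.21 ± 0.06. Within YAC128 arrays it differed by 0.10 and was not called. For these 6 genes the interval difference stayed at an unadjusted p under 0.05 with sex as a term and in every alternative fit, and had an adjusted p of 1 in the fit without covariates. Of 32 replication-dependent histone genes 4 had a higher and 1 a lower interval difference, where 307 of all probesets had a higher and 813 a lower one. Within YAC128 arrays 0 of these genes were called, while in WT striatum 4 were lower and 0 higher at 12 months.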

How the data were processed

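Striatal RNA of single mice was hybridised to Affymetrix Mouse Gene 1.0 ST arrays. The deposited values are log2 intensities per probeset, made by the authors with robust multichip average (RMA), which corrects background, normalises between arrays and summarises probes. No values were rescaled for the main results. Of 34760 probesets, 21640 had 1 gene symbol, 1321 several and 11799 none in the platform annotation used, and 20 symbols were updated. The brightest probeset stood for a gene.

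Differences between 12 and 6 months were tested with limma 3.58.1 (R 4.3.3) on the 9 YAC128 arrays without covariates, and the difference from the WT interval on 18 arrays, with Benjamini-Hochberg adjustment over all probesets. The fit was tested on simulated data. Alternatives were sex as a term, males only, the cortical mean as a term, all 26 arrays, other scalings, filters, array weights, each array left out, and a block for mice with the same sex and number in their labels. The deviations of these pairs correlated at 0.383, 0.161 and 0.152, and those of the 17 unmatched pairs at -0.302 to 0.282 (the highest for 6-month M3 and 12-month F3). The highest unmatched value was thus above the matched values of 0.161 and 0.152. No shared litter is stated for these mice, so the pairing by labels is not established. The gene lists, members and tests were chosen with earlier results of these data known. Genes were named by smallest p, by largest difference among those at an unadjusted p under 0.05, and by list. Others were added as examples after their values were seen.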

Additional observations from a re-analysis of the deposited data

Results flagged for a closer look

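In each group of 4 or 5 arrays, the highest or lowest value of each gene list mean and each named gene was compared with its nearest neighbour by Dixon's ratio. Of 306 groups of values 20 were past the critical value, and chance alone marks about 1 in 20 groups.

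Among list means, the 6-month female F1 was lowest for immediate early genes (8.16, next 8.48) and for blood genes (6.31, next 6.49) and highest for mitochondrial ribosomal genes (8.50, next 8.42). The 6-month M2 array was lowest for direct pathway neurons (8.85, next 9.31) and highest for cholesterol synthesis (9.26, next 9.12). The 6-month M1 array was highest for choroid plexus and ependyma (8.43, next 7.33) and lowest for opioid to muscarinic receptors (8.26, next 8.33). At 12 months M1 was highest for choroid plexus and ependyma (7.54, next 7.25) and F1 for DNA repair (8.06, next 7.97).

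Among single genes at 6 months, M2 was highest for Btg2 (8.73) and Slc7a11 (9.47) and lowest for Drd2 (10.80) and Penk (12.45). The 6-month F1 array was highest for Pcdhb11 (7.53) and lowest for Socs3 (7.96) and Hspa8 (12.94). At 12 months F1 was lowest for Egr2 (7.08) and highest for C1qa (8.84), Mir541 (6.85) and Arntl (8.83). The causes were not tested.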

How the results depend on the processing

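The count of probesets at an unadjusted p under 0.05, 1559, was 5010 in males only (2 of them at an adjusted p under 0.05), 898 among probesets with 1 symbol (21640 tested), 4326 with array weights and 2354 with the replicate block, and 1225 (without 6-month M3) to 3901 (without 6-month F1) with 1 array left out. The count for the difference from WT, 1120, was 1513 with the replicate block and 804 (without YAC128 6-month M2) to 2009 (without WT 6-month M2) with 1 array left out.

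Of 43 immediate early genes, 5 were called in males only, where 5010 of 34760 probesets were, so the share of the list was below that of all probesets. With array weights 18 were called, where 4326 of all probesets were. With 1 array left out 8 to 21 were called, the most without 6-month F1, where 3901 of all probesets were (11.2%). Of 22 clock genes, 3 were called with the replicate block. Of 22 protocadherin genes, 9 were called with sex as a term, 8 in males only, 8 with the replicate block and 6 to 18 with 1 array left out.

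Of 84 named genes at an unadjusted p under 0.05, 54 stayed there whichever array was left out, 29 were lost with the replicate block, 22 with sex as a term and 37 in males only, and 0 changed sign. These genes had passed on the same arrays, so keeping the sign or the call is in part set by that choice. It is not independent evidence of a change. Genes that did not pass changed sign as follows. With the replicate block the differences were 0.018 for Arntl, 0.0195 for Per1, 0.032 for Gfap and -0.0104 for Rian. With arrays centred on the median Arntl was at 0.0146. In males only Cry1 was at -0.0128, with sex as a term Rian was at -0.0125, and with array weights Cry1 was at -0.024, Drd2 at -0.0020 and Aldh1l1 at -0.0083. With 1 array left out, the differences ran from -0.072 to 0.0052 for Arntl, -0.179 to 0.0198 for Per1, -0.0134 to 0.108 for Per2, -0.0144 to 0.035 for Cry1, -0.0207 to 0.259 for Drd1, -0.107 to 0.219 for Drd2, -0.078 to 0.169 for Penk, -0.011 to 0.044 for Aldh1l1 and -0.050 to 0.070 for Rian. The causes were not tested. Probesets near the dim end of the array, and 4 and 5 arrays with unequal sexes, limit the precision of all values.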
